A study of Mus musculus with 9 samples.

Results

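Nnat, the gene for neuronatin, was described together with 9 other imprinted genes, Peg3, Mest, Plagl1, Ndn, Cdkn1c, Dlk1, Meg3, H19 and Grb10, in RNA sequencing of whole mouse eyeballs. The genes were found by their symbols, and all 10 were present among the 22587 genes of the deposited tables. Nnat was chosen by its mean level, which was higher in T.chuii than in CON eyeballs, so its values for that pair are a description with no test. The other 9 genes were listed by name as imprinted genes.

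The series compared 3 groups of 3 libraries from female wild-type BALB/C mice, an albino inbred strain. Mice of the T.chuii group received scopolamine by intraperitoneal injection and Tetraselmis chuii, a green microalga, at 300 mg/kg. DES mice (dry eye syndrome) received scopolamine in the same way and were given water, and CON mice received no injection and water. Treatment started at 6 weeks of age and ran for 2 weeks, and the labels give the tissue as postnatal day 56. Scopolamine, an antagonist of muscarinic receptors, lowers tear secretion and serves as a model of dry eye. Whether each library is a different mouse is not stated, and the p-values below describe library-to-library spread that may be partly technical.

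An imprinted gene is transcribed mainly from the allele inherited from 1 parent, a state set in most cases by methylation laid down in the egg or the sperm. Many imprinted genes act on fetal growth and on the differentiation of neurons, muscle and fat, and are much less active after birth. Nnat, Peg3, Mest, Plagl1, Ndn and Dlk1 are expressed from the paternal allele in mice, and Cdkn1c, Meg3 and H19 from the maternal allele. Grb10 is maternally expressed in most tissues and paternally expressed in neurons. The tables hold 1 total per gene and library, so the alleles were not told apart.

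Nnat lies on chromosome 2 (mm10, bases 157560078 to 157562525, forward strand), inside an intron of Blcap, which is read from the opposite strand. The window across the Nnat start site is printed because Nnat is the gene the set was drawn up around. Those of Peg3, Meg3 and Grb10 are shown because these 3 genes moved together from library to library. The windows are from RefSeq on GRCm38.p6, the assembly of mm10, which held an entry for 8 of the 10 genes, all but Cdkn1c and H19. Each has 300 bases and is written 5′ to 3′ on the strand of the gene. Capitals mark TGCCGC, the core bound by the imprint-keeping zinc finger protein ZFP57, or its reverse complement, and in Peg3 GGGGCCCC, a core bound by PLAGL1.
Nnat, chr2:157559828-157560127, forward strand: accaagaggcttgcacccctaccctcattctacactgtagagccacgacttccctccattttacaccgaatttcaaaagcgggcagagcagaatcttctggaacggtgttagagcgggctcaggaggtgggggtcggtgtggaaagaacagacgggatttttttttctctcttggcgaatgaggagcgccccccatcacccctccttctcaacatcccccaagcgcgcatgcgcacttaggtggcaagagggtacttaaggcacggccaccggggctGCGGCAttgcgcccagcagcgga
Peg3, chr7:6730370-6730669, reverse strand: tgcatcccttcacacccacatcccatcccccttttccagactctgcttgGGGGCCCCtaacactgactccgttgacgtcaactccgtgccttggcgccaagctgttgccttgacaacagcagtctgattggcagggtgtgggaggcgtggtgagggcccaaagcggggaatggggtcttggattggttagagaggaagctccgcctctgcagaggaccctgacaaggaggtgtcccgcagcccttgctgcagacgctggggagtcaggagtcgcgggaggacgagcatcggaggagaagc
Meg3, chr12:109540746-109541045, forward strand: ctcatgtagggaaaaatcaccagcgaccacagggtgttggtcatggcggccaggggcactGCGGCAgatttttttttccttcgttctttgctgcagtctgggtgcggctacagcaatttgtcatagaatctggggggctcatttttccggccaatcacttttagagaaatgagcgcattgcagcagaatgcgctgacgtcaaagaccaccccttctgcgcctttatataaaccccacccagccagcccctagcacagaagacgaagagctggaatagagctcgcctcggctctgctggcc
Grb10, chr11:12037371-12037670, reverse strand: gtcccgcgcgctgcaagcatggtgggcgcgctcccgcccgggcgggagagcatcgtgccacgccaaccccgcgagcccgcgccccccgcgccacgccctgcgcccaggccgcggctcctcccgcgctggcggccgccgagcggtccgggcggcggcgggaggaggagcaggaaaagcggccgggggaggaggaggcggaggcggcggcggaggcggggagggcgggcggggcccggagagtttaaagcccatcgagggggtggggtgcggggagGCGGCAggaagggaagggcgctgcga
The Nnat window held 17 CpG dinucleotides, the Peg3 window 13, the Meg3 window 13 and the Grb10 window 45. Meg3 and Grb10 each have a second listed start, whose windows held 1 and 9 CpG and neither motif. The median over the 32851 windows of all genes was 7. On either strand, TGCCGC was found in 11.6% of all windows and GGGGCCCC in 1.08%. GCCATCTT, a core bound by YY1, was in none of the 4 windows shown and in 2.75% of all windows. The ZFP57 and PLAGL1 motifs do not overlap each other in these windows. A match is a description of the letters only.

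The libraries held 39.1 to 64.6 M reads each, with no counts of 0, and no pair of them was alike within sampling noise. Counts were scaled to library size and written as CPM, and 21287 genes with enough reads, the 10 imprinted genes included, were tested together with limma-voom. At an adjusted p of 0.05, 0% of the tested genes were called in each of the 3 comparisons. At an unadjusted p of 0.05 the share was 1.1% for DES vs CON, 1.09% for T.chuii vs DES and 4.28% for T.chuii vs CON. Limma on log2(FPKM + 0.1), where FPKM is the deposited level per transcript length and library size, also called 0 genes, with 294, 267 and 1083 at the unadjusted threshold in the same order of comparisons. Rod photoreceptor markers summed to at least 11600 CPM in every library. Lens markers were the exception to the labelled tissue: 12 of 18 listed genes were in the tables, and their sum was 28600, 60300 and 11800 CPM in the T.chuii libraries, 44100, 388 and 39400 in the DES libraries and 288, 268 and 259 in the CON libraries. DES library 2 and all CON libraries therefore stood apart, with little lens RNA. None of the 12 lens genes had 3 or fewer reads in any library.

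Of the 10 imprinted genes, compared per length of transcript, Ndn had the highest level, with a mean of 116 FPKM over the 9 libraries. Averaged over all groups, Mest followed with 43.7, Nnat with 33.7, Cdkn1c with 32.4 and Meg3 with 11.8 FPKM. Lower levels were found for Peg3 with 5.53, Grb10 with 4.09, Plagl1 with 1.76, H19 with 1.55 and Dlk1 with 0.255 FPKM. Mest, Nnat and Cdkn1c were neighbours whose ranges over the libraries overlapped, at 34.1 to 51 FPKM for Mest, 6.53 to 57.1 for Nnat and 22 to 54.2 for Cdkn1c. The same held for Meg3, at 4.84 to 17 FPKM, Peg3, at 3.65 to 6.99, and Grb10, at 2.56 to 5.46, each with its neighbour, and for Plagl1, at 1.41 to 2.2, and H19, at 0.533 to 3.27. The place of Nnat depended on the group: its mean was 50.1 ± 6.15 FPKM in T.chuii, beside 46.5 ± 7.8 for Mest and 38.3 ± 14.5 for Cdkn1c, 37.7 ± 19.9 FPKM in DES, beside 40.4 ± 6.79 and 30.5 ± 9.63, and 13.4 ± 6.07 FPKM in CON, beside 44.3 ± 6.75 and 28.3 ± 1.29 (SD, n = 3). In CON it lay near Meg3, at 11.8 ± 6.27 FPKM, whose range over the 9 libraries overlapped that of Nnat. The lowest Ndn library, at 76.2 FPKM, lay above every library of Mest and of Nnat, and the highest Dlk1 library, at 0.443 FPKM, lay below every library of the other 9 genes.

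**Figure D1:**
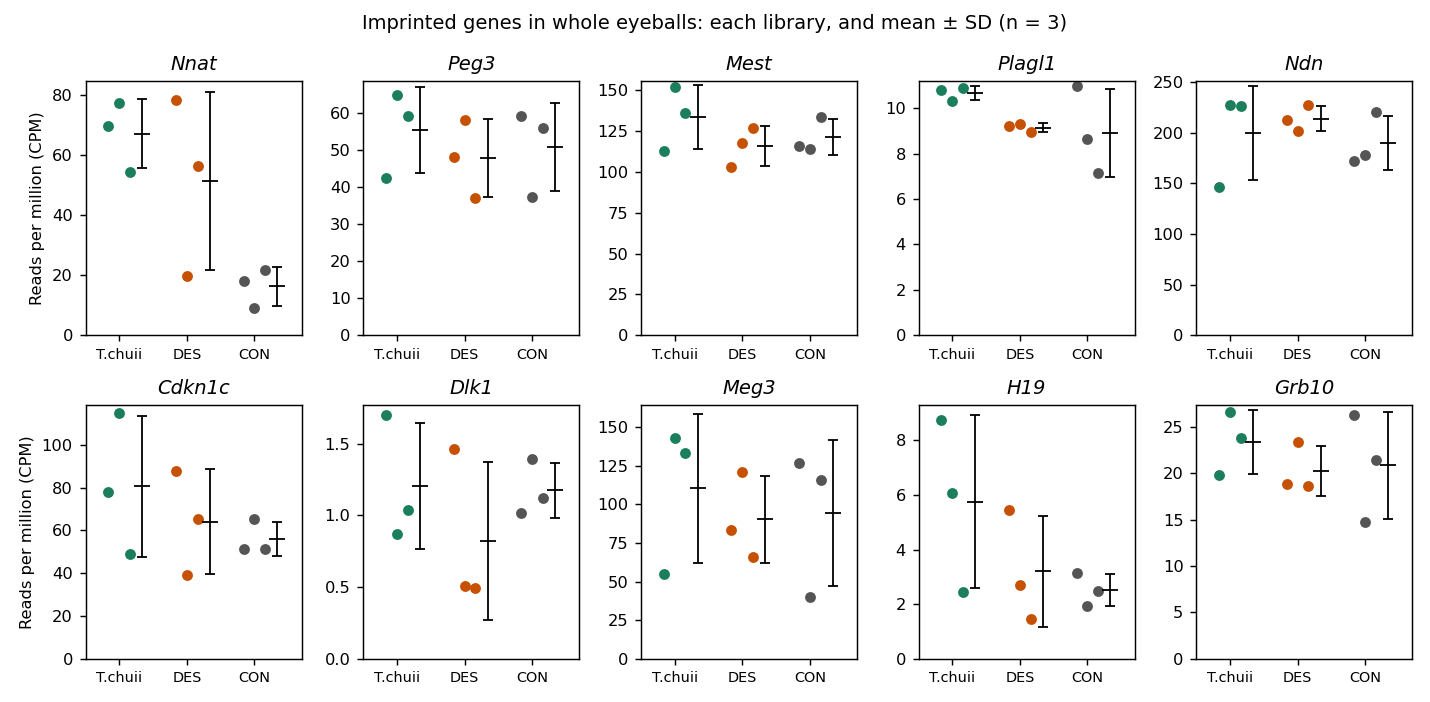
Library-scaled reads (CPM, linear axes from 0) of the 10 imprinted genes in each of the 9 libraries, with the mean and SD of each group to the right of its points (n = 3). For Nnat the T.chuii libraries lay between 54.6 and 77.4 CPM and the CON libraries between 9.11 and 21.7 CPM, while DES library 2, at 19.6 CPM, lay among the CON libraries.

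Nnat encodes a small proteolipid of the endoplasmic reticulum membrane, found in developing brain and in endocrine and other differentiating cells. It had 69.8, 77.4 and 54.6 CPM in the T.chuii libraries, 78.4, 19.6 and 56.5 CPM in the DES libraries and 18.1, 9.11 and 21.7 CPM in the CON libraries. All T.chuii libraries were above all CON libraries, and the DES group had 2 high libraries and 1 within the CON range. Group means were 67.2 ± 11.6 CPM in T.chuii, 51.5 ± 29.8 in DES and 16.3 ± 6.5 in CON (SD, n = 3 each). At least 529 reads stood behind each value, so counting error was small beside the differences between libraries. The highest library was 8.61 times the lowest, and the coefficient of variation over the 9 libraries was 61.8%, close to that of H19 (63.0%) and above the other 8 genes, which lay between 12.1 and 38.4%.

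The T.chuii mean of Nnat was 4.37 times the CON mean in the fitted model, a log2 difference of 2.13. This is the difference Nnat was picked for, and no test of it is given. For DES vs CON the log2 change of Nnat was 1.53 ± 0.50 (SE, 95% interval 0.43 to 2.64). The 2 groups overlapped, and limma-voom gave an adjusted p of 1, with an unadjusted p of 0.0113. Without DES library 2 the log2 change was 2.15 with an adjusted p of 0.227, and without CON library 2, DES library 1 and T.chuii library 1, the richest in corneal markers of each group, it was 0.70 with an adjusted p of 1 (limma-voom). For T.chuii vs DES it was 0.59 ± 0.47 (95% interval -0.45 to 1.64, limma-voom adjusted p = 1), and the groups overlapped. That last difference rested on DES library 2: without it the log2 change was 0.03, and without DES library 1 it was 1.03. Both comparisons share libraries with the one that Nnat was chosen on, the CON libraries in DES vs CON and the T.chuii libraries in T.chuii vs DES, so neither test is independent of the choice.

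The Nnat level moved with the lens markers. The 4 libraries with lens sums of 259 to 388 CPM had Nnat at 9.11 to 21.7 CPM, and the 5 libraries with lens sums of 11800 to 60300 CPM had Nnat at 54.6 to 78.4 CPM. The libraries thus fell into separate sets, so no correlation of Nnat with the lens sum over all 9 is given. The larger set has too few libraries for one. Other marker sums also differed. Fast skeletal muscle markers (14 of 14 listed) summed to 3750 to 18300 CPM in T.chuii, 1820 to 9020 in DES and 928 to 2720 in CON. Adipocyte markers (5 of 9) summed to 88.3 to 1580 CPM in T.chuii, 14.8 to 45.4 in DES and 7.63 to 34 in CON. Müller glia and astrocyte markers (11 of 11) summed to 5940 to 7410 CPM in T.chuii, 4380 to 5640 in DES and 4610 to 5400 in CON, and endothelial markers (8 of 8) to 112 to 158, 115 to 176 and 102 to 116 CPM in the same order of groups. Like Nnat, the muscle, adipocyte and glia sums were higher in every T.chuii library than in every CON library. The part of lens RNA and of these other cell types in the Nnat differences was not tested. In RNA from a whole organ, fewer cells of a type and less RNA per cell cannot be told apart.

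**Figure D2:**
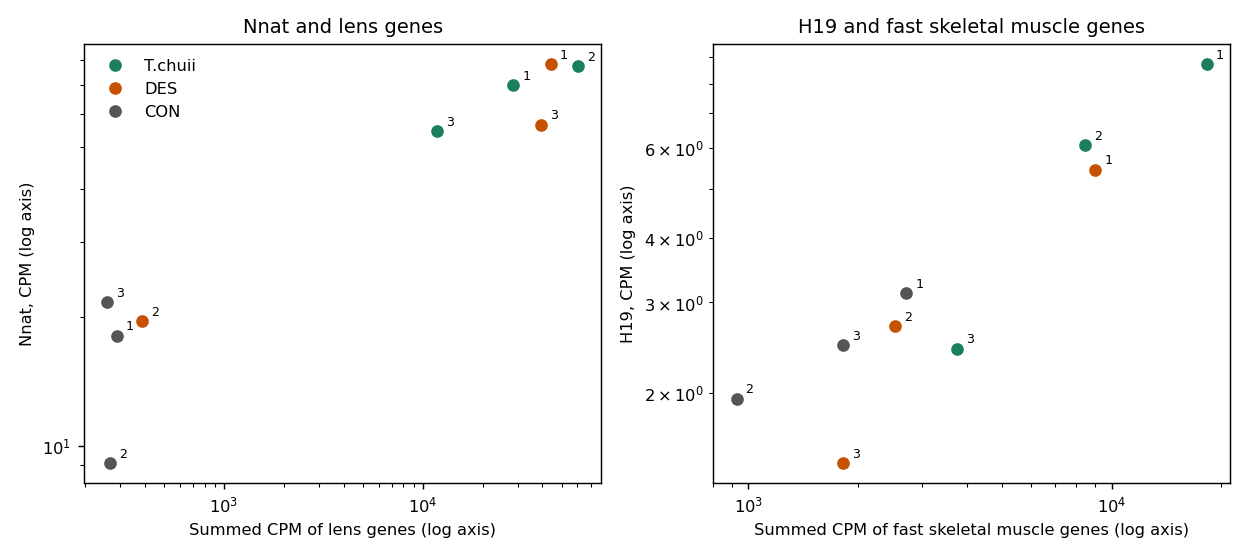
Left, Nnat (CPM) against the summed CPM of 12 lens genes. Right, H19 (CPM) against the summed CPM of 14 fast skeletal muscle genes. All axes are logarithmic, points are single libraries coloured by group, and the digits are replicate numbers. The 4 libraries with lens sums of 259 to 388 CPM all had Nnat at or below 21.7 CPM, and the T.chuii library highest in muscle genes, at 18300 CPM, was highest for H19, at 8.74 CPM.

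The genes most like Nnat over the 9 libraries were ranked by Pearson's r of log2 CPM, among 17177 genes with a mean of at least 1 CPM. Inhba, a subunit of activin A, came first with r = 0.978, followed by the noncoding RNA 7530428D23Rik (0.975), the endoplasmic reticulum gene Lnpk (0.974) and the noncoding RNA Sox2ot (0.970). Next were Pitx3 (0.965), a homeobox gene needed for the lens, and Npl (0.963), an enzyme of sialic acid breakdown. Pitx3 had 10.0, 11.7 and 4.12 CPM in the T.chuii libraries, 14.4, 0.253 and 7.01 CPM in the DES libraries and 0.166, 0.0689 and 0.0839 CPM in the CON libraries. Pitx3 was thus at least 4.12 CPM in the libraries with high lens sums and at most 0.253 CPM in the 4 others. Inhba had 17.1, 15.4 and 11.4 CPM in T.chuii, 18.0, 4.50 and 8.72 CPM in DES and 4.89, 2.41 and 4.36 CPM in CON, with the same 5 libraries high. All 6 genes were higher in each of these 5 libraries than in any of the 4 lens-poor ones. Nnat itself split in this way, so the shared split largely follows from how the 6 were picked. It also holds the T.chuii and CON libraries that Nnat was chosen on. The values of r are a description with no p.

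Of the 9 other genes described here, Cdkn1c was nearest to Nnat, at rank 1286 (r = 0.595), then H19 at rank 1590 (0.553), and the other 7 lay between rank 2924 for Plagl1 and rank 6358 for Dlk1. Blcap, the host gene, encodes a small membrane protein first found as lost in bladder cancer. It was at rank 13087 with r = -0.407. Blcap had 70.4, 104 and 106 CPM in the T.chuii libraries, 86.6, 118 and 91.0 CPM in the DES libraries and 98.0, 95.6 and 104 CPM in the CON libraries. Its highest library was 1.67 times its lowest, against 8.61 times for Nnat. The log2 change of Blcap was -0.11 ± 0.22 for T.chuii vs CON (adjusted p = 0.992) and -0.03 ± 0.22 for DES vs CON (adjusted p = 1, limma-voom).

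Among the 9 genes other than Nnat, none was called in any comparison with limma-voom. Nnat is left out of the counts of direction and the medians that follow, since its choice fixed its direction in T.chuii vs CON. The statements on overlap at the end of this paragraph cover all 10 genes. Of the 9 genes, 8 had a fitted log2 change above 0 in T.chuii vs DES, 8 in T.chuii vs CON and 6 in DES vs CON. The share of all tested genes with a fitted change above 0 was 45.1% for T.chuii vs DES, 44.6% for T.chuii vs CON and 47.6% for DES vs CON. Fitted changes are means of log2 values, so for small differences their sign can differ from that of the mean CPM, as for Meg3 and Grb10 in DES vs CON and for Dlk1 in T.chuii vs CON. The median log2 change of the 9 genes was 0.21 for T.chuii vs DES, 0.21 for T.chuii vs CON and 0.05 for DES vs CON, beside -0.03, -0.04 and -0.02 for all tested genes. The comparisons share libraries with each other, so these counts are not independent. Nor are the genes, since Peg3, Meg3 and Grb10 moved together across libraries. Without CON library 2 their changes in T.chuii vs CON were -0.08, -0.27 and -0.03, so that count depended on this library. Groups without overlap were found for Plagl1 alone in T.chuii vs DES, where 4.8% of all tested genes had none (2.3% higher and 2.49% lower in T.chuii). In T.chuii vs CON they were found for Nnat alone, beside 8.42% of all tested genes (5.45% higher and 2.97% lower in T.chuii), and nothing is read from this, since the contrast chose Nnat. In DES vs CON they were found for none of the 10, beside 3.65% of all tested genes (2% higher and 1.65% lower in DES).

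**Figure D3:**
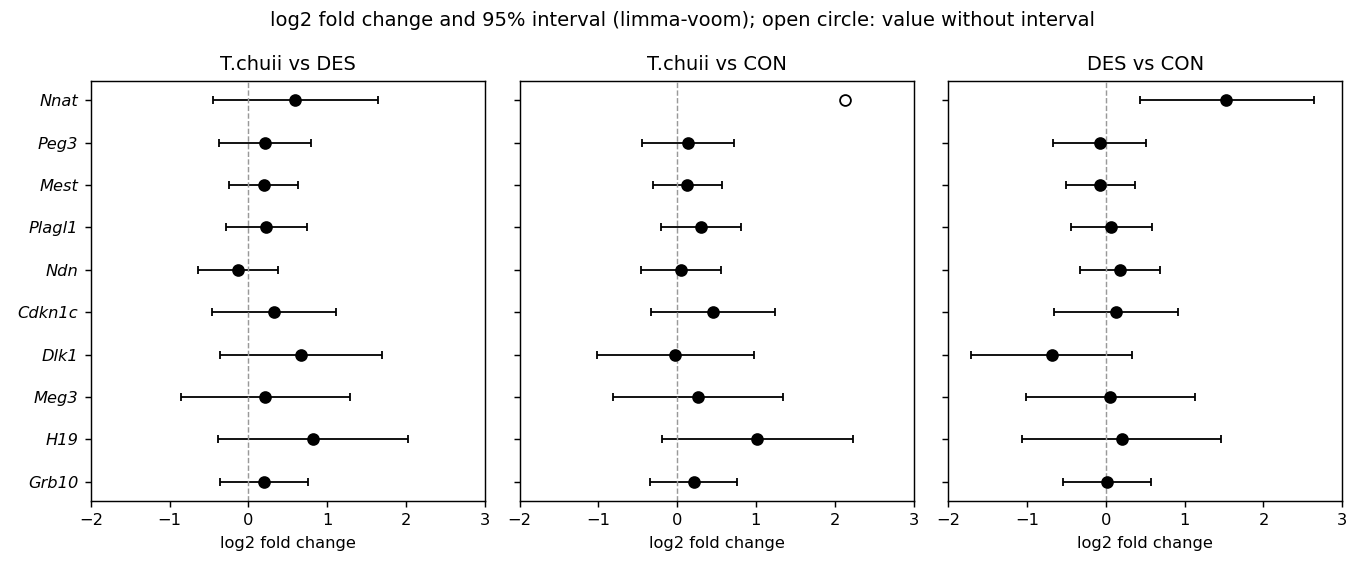
Log2 fold change of each imprinted gene (points, first-named group over second-named group) with its 95% interval from limma-voom (bars) for the 3 comparisons. The open circle is Nnat in T.chuii vs CON, at 2.13, shown without an interval. The interval of Nnat in DES vs CON, 0.43 to 2.64, was the only one drawn that did not include 0. It rests on the CON libraries that Nnat was chosen on, is not adjusted for the number of genes, and Nnat was not called there.

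Of the genes for transcription factors and nuclear proteins, Plagl1 encodes a zinc finger factor that binds other imprinted genes. Plagl1 had 10.8, 10.3 and 10.9 CPM in the T.chuii libraries, 9.21, 9.30 and 8.94 CPM in the DES libraries and 11, 8.64 and 7.15 CPM in the CON libraries. The T.chuii libraries all lay above the DES libraries, and the CON libraries spanned both groups. The log2 change for T.chuii vs DES was 0.22 ± 0.23 (95% interval -0.29 to 0.74, limma-voom adjusted p = 1). Peg3, another zinc finger protein, had 42.5, 64.8 and 59.3 CPM in T.chuii, 48.2, 58.2 and 37.0 CPM in DES and 59.3, 37.2 and 55.9 CPM in CON, with a low library in each group. Ndn, a MAGE family protein of neurons, had 146, 227 and 226 CPM in T.chuii, 213, 202 and 227 CPM in DES and 172, 178 and 221 CPM in CON. It was the 1 gene with a lower mean in T.chuii than in DES, by a log2 change of -0.13 ± 0.23 (limma-voom adjusted p = 1).

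Of the genes for growth inhibitors and signalling proteins, Cdkn1c encodes p57, which blocks cyclin-dependent kinases. Cdkn1c had 78.0, 115 and 49.0 CPM in the T.chuii libraries, 88.0, 39 and 65.3 CPM in the DES libraries and 51.5, 65.3 and 51.4 CPM in the CON libraries. The groups overlapped, with log2 changes of 0.33 ± 0.35 for T.chuii vs DES and 0.45 ± 0.35 for T.chuii vs CON (limma-voom adjusted p = 1 and 0.986). The lens-poor libraries held 39 to 65.3 CPM of Cdkn1c and the others 49.0 to 115 CPM, ranges that overlap, unlike those of Nnat. Grb10, an adaptor that dampens insulin receptor signalling, had 19.8, 26.6 and 23.8 CPM in T.chuii, 18.9, 23.4 and 18.6 CPM in DES and 26.3, 14.8 and 21.5 CPM in CON. Dlk1, a membrane protein with EGF-like repeats that holds back fat cell differentiation, had 1.70, 0.873 and 1.04 CPM in T.chuii, 1.46, 0.506 and 0.497 CPM in DES and 1.02, 1.39 and 1.12 CPM in CON. With 18 to 81 reads per library, Dlk1 had the fewest reads of the 10, and its log2 change of 0.67 ± 0.46 for T.chuii vs DES had an interval of -0.36 to 1.70 (limma-voom adjusted p = 1).

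Mest encodes a hydrolase-like membrane protein linked to the growth of fat tissue. Mest had 113, 152 and 136 CPM in the T.chuii libraries, 103, 118 and 127 CPM in the DES libraries and 116, 114 and 134 CPM in the CON libraries. It varied least of the 10, with a coefficient of variation of 12.1%. Its 95% intervals reached from -0.24 to 0.63 for T.chuii vs DES, from -0.31 to 0.57 for T.chuii vs CON and from -0.50 to 0.37 for DES vs CON, so log2 changes beyond 0.63 in either direction lay outside all of them. The gene overlaps Copg2 on the opposite strand, and the sources used here do not give the strand setting of the counting. Copg2 had 71.9, 54.5 and 68.9 CPM in T.chuii, 102, 76.6 and 71.6 CPM in DES and 76.6, 137 and 71.6 CPM in CON, so Copg2 was highest in CON library 2 and Mest in T.chuii library 2.

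H19 and Meg3 are long noncoding RNAs. H19, abundant in fetal muscle and liver, had 8.74, 6.07 and 2.44 CPM in the T.chuii libraries, 5.44, 2.7 and 1.46 CPM in the DES libraries and 3.13, 1.95 and 2.48 CPM in the CON libraries. The groups overlapped because T.chuii library 3 lay within the CON range. The log2 change was 1.02 ± 0.55 for T.chuii vs CON (95% interval -0.19 to 2.23, limma-voom adjusted p = 0.986) and 0.82 ± 0.55 for T.chuii vs DES (adjusted p = 1). H19 moved with 14 genes of fast skeletal muscle, whose sum was 18300, 8450 and 3750 CPM in T.chuii, 9020, 2530 and 1820 CPM in DES and 2720, 928 and 1820 CPM in CON. Over the 9 libraries r was 0.93 (exact permutation p = 0.000683, adjusted p = 0.041 over 120 relations between the imprinted genes and the tissue markers) and Spearman's rho was 0.85 (exact permutation p = 0.0064, adjusted p = 0.192). Without DES library 1 and T.chuii library 1, r was 0.83. The exact permutation adjusted p of 0.041 depends on the relation of Nnat with the lens sum, which had the smallest p of the 120. That relation is withheld above and rests on libraries that Nnat was chosen on, so the 0.041 is not read as a pass. Endothelial markers had r of 0.82 and rho of 0.77 with H19, and adipocyte markers 0.77 and 0.50. The exact permutation adjusted p for r was 0.127 for both. Without DES library 1 and T.chuii library 2 the endothelial r was 0.83. Without T.chuii libraries 1 and 2 the adipocyte r was 0.20. The part of muscle RNA and of these other tissues in the H19 differences was not tested. Igf2, the growth factor gene next to H19, had 7.59, 13.9 and 7.64 CPM in T.chuii, 8.32, 8.17 and 4.83 CPM in DES and 8.02, 6.46 and 9.14 CPM in CON, with groups that overlapped.

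Meg3 had 55.0, 143 and 133 CPM in the T.chuii libraries, 83.6, 121 and 66.2 CPM in the DES libraries and 127, 40.1 and 116 CPM in the CON libraries. Each group thus held libraries near the top and near the bottom of the range, and the highest was 3.56 times the lowest. Log2 changes were 0.21 ± 0.49 for T.chuii vs DES and 0.27 ± 0.49 for T.chuii vs CON (limma-voom adjusted p = 1 and 0.990). Meg3, Peg3 and Grb10 went up and down together across libraries, within each of the 3 groups too. For Meg3 with Peg3 r was 0.95 and rho 0.93, for Grb10 with Peg3 r was 0.91 and rho 0.97, and for Grb10 with Meg3 r was 0.92 and rho 0.93 over 9 libraries. Adjusted over the 45 pairs of the 10 genes, the exact permutation p was 0.00918 for r in all 3 pairs, and 0.0112, 0.00744 and 0.0112 for rho. No other pair passed 0.05. With the 2 libraries farthest from the median left out, r was 0.99, 0.88 and 0.92 in the same order.

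Other measures moved with these 3 genes. Peg3 and Meg3 have the longest transcripts of the 10, at 9.43 and 8.41 kb as implied by count and FPKM, and Grb10 has 5.34 kb. Plagl1, at 5.48 kb, is longer than Grb10, and its r was 0.26 with Peg3, 0.20 with Meg3 and 0.46 with Grb10. Across 1014 genes over 8 kb, the median log2 deviation from the gene's mean was -0.22, 0.24 and 0.11 in the T.chuii libraries, 0.07, 0.15 and -0.30 in the DES libraries and 0.07, -0.12 and 0.06 in the CON libraries. The 3 libraries lowest in long genes, T.chuii library 1, DES library 3 and CON library 2, were also the 3 lowest for both Meg3 and Peg3. Grb10 falls in the class of 5 to 8 kb, with 2124 genes. There the deviation was -0.17, 0.06 and 0.04 in T.chuii, 0.04, 0.10 and -0.18 in DES and 0.08, 0.11 and -0.03 in CON. CON library 2, the lowest for Grb10, was thus above 0 in that class. Across 880 genes under 1 kb the deviation was 0.54 and 0.53 in T.chuii library 1 and DES library 3, but -0.40 in CON library 2. Corneal epithelium markers (14 of 14 listed) summed to 47500, 12400 and 20100 CPM in T.chuii, 51000, 21000 and 28800 in DES and 27200, 84000 and 33800 in CON. Their r was -0.85 with Meg3, -0.87 with Grb10 and -0.76 with Peg3, for which Spearman's rho was -0.90, -0.85 and -0.77. The exact permutation p for r was 0.00294, 0.00255 and 0.0175, which adjusted over the 120 relations came to 0.0784, 0.0784 and 0.138 (0.192, 0.192 and 0.233 for rho), so none passed. With CON library 2 and T.chuii library 2 left out, r was -0.69, -0.67 and -0.51. Myelin markers (9 of 10 listed) summed to 2780, 710 and 1240 CPM in T.chuii, 1570, 724 and 1110 in DES and 924, 2890 and 1000 in CON, with the highest sums in the T.chuii and CON libraries lowest for Meg3. Myelin r was -0.87 with Meg3, -0.79 with Grb10 and -0.74 with Peg3, and rho was -0.78, -0.77 and -0.72. The exact permutation adjusted p for r was 0.0784, 0.127 and 0.166, so none passed. With CON library 2 and T.chuii library 1 left out, these r were -0.56, -0.68 and -0.51. Markers of retinal ganglion and amacrine cells (14 of 14) summed to 304, 697 and 839 CPM in T.chuii, 368, 738 and 686 in DES and 758, 412 and 745 in CON, so they fell into a low set of T.chuii library 1, DES library 1 and CON library 2 and a high set of the others. Markers of keratocytes and sclera had r of -0.78 with Meg3, -0.69 with Grb10 and -0.74 with Peg3 and rho of -0.80, -0.67 and -0.68 (exact permutation, adjusted p for r = 0.127, 0.19 and 0.166). With DES library 2 and T.chuii library 2 left out, these r were -0.76, -0.58 and -0.64. The part of transcript length and of these tissues in the shared movement was not tested.

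**Figure D4:**
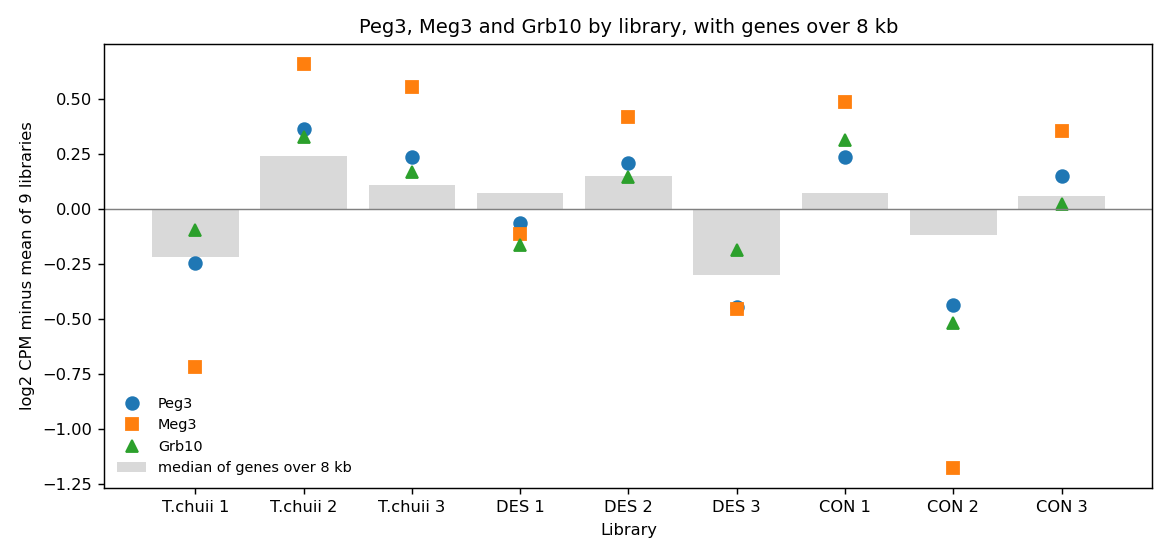
Log2 CPM minus the gene's mean over 9 libraries for Peg3, Meg3 and Grb10 (symbols) in each library, with the median of 1014 genes over 8 kb (grey bars from 0). The symbols lay above 0 together in 5 libraries and below 0 together in the other 4, and bars below 0 were found in T.chuii library 1, DES library 3 and CON library 2.

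Other genes listed as imprinted gave a background for the 10. Whether each of them is imprinted in the eye cannot be told from these totals, which do not separate the alleles. Of 22 further paternally expressed genes listed, 18 were tested, and 9 had a fitted log2 change above 0 in T.chuii vs DES, 11 in T.chuii vs CON and 9 in DES vs CON. Of 24 further genes listed as maternally expressed, 22 were tested, and 12 had a fitted change above 0 in each of the 3 comparisons. None of the 40 genes was called. Their median log2 changes lay between 0.01 and 0.12, close to the medians of -0.04 to -0.02 over all tested genes. At an unadjusted p of 0.05, 4 of the 22 maternally expressed genes passed in T.chuii vs CON, where 4.28% of all tested genes did, and 1 in DES vs CON, where 1.1% did, with limma-voom. None of the 18 paternally expressed genes passed in either comparison.

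The further genes with the smallest p-values were mostly at low levels. Zim1, a zinc finger gene beside Peg3, had 0.885, 0.349 and 0.756 CPM in T.chuii libraries and 0.261, 0.138 and 0.285 CPM in CON libraries, without overlap (log2 change 1.47 ± 0.52, limma-voom adjusted p = 0.986). Asb4, part of a ubiquitin ligase, had 1.35, 1.40 and 0.284 CPM in T.chuii and 0.356, 0.172 and 0.235 CPM in CON, with overlap (1.70 ± 0.72, adjusted p = 0.986). In the other direction, Ascl2, a transcription factor of the placenta, had 2.47, 1.57 and 1.47 CPM in T.chuii and 2.14, 6.85 and 3.32 CPM in CON (-1.05 ± 0.44, adjusted p = 0.986). Rasgrf1, an exchange factor for Ras, had 50.2, 40.8 and 51.1 CPM in T.chuii and 58.3, 84.8 and 53.8 CPM in CON, without overlap (-0.45 ± 0.24, adjusted p = 0.986).

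For T.chuii vs DES the genes named by the same rule were Zim1 (log2 change 0.97), the transporter Slc22a3 (1.25), the potassium channel Kcnq1 (-0.88) and Ascl2 (-0.62). For DES vs CON they were Kcnq1 (0.68), Osbpl5 (-0.47), Rasgrf1 (-0.34) and Calcr, the calcitonin receptor. Calcr had 0.321, 0.236 and 0.304 CPM in DES libraries and 0.0949, 0.0517 and 0.201 CPM in CON libraries, without overlap, with a log2 change of 1.41 ± 0.52 (limma-voom adjusted p = 1) and only 3 to 16 reads per library. The adjusted p was 1 for each of these genes in both comparisons. Among the 19 genes listed as neighbours of the 10, 17 were tested and none was called.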

How the data were processed

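Eyeball RNA was made into libraries with a TruSeq Stranded mRNA kit, per the labels' protocols. The submitters' processing notes name HISAT2 2.1.0, Bowtie2 2.3.4.1, StringTie 2.1.3b, Trimmomatic 0.38, FastQC 0.11.7 and the build mm10, without parameters. The sources used here do not give the counting step or its strand setting. Each deposited table gives read counts and FPKM, per the file headers. Both were taken from the right end of a row, because row lengths vary.

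The 10 genes, the wider imprinted lists and the marker lists were chosen with earlier results of these data known. A gene was tested if 3 or more libraries reached the CPM that 10 reads make in the median library, and its total was 15 reads or more. Library sizes were corrected by the TMM method (trimmed means), in code of its own. The test was limma-voom (R 4.3.3, limma 3.58.1) on the counts, all 9 libraries in 1 fit with 6 residual degrees of freedom, two-sided, with Benjamini-Hochberg adjustment over all tested genes at 0.05. Quasi-likelihood count tests were not run, because the irregular rows could not be accepted as a column of counts by header position. Fitted changes are log2 fold changes ± SE. Correlations used log2 CPM and exact two-sided permutation tests with Python 3.11.15 and scipy 1.17.1. The fit was also run on simulated counts with the same fixed spread for every gene and no tissue differences between libraries. That run does not show how the fit performs on libraries as varied as these.

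Beyond the 10 genes, a further imprinted gene was named where its p was among the 2 smallest in each direction of a comparison, and the 6 genes most like Nnat were named. Deviations from group means of same-numbered libraries correlated at 0.56, 0.34 and 0.17 between T.chuii and DES. Differently numbered libraries of these groups correlated at -0.56 to 0.46, the highest for T.chuii library 3 with DES library 2. The column headers carry other numbers, so these values do not establish a pairing, and the main fit had none. Same-numbered libraries correlated at -0.30, -0.24 and 0.23 between DES and CON. Between T.chuii and CON they correlated at -0.30, -0.37 and 0.29, and neither of these comparisons counts as paired.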

Additional observations from a re-analysis of the deposited data

How the results depend on the processing

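Of the imprinted genes other than Nnat, the further ones included, none was called in any comparison under any setting tried. Nnat was not called in T.chuii vs DES or DES vs CON, and no test of it is given for T.chuii vs CON. The settings covered other scalings, no filter, limma on log2(FPKM + 0.1), log2(FPKM + 1) and log2(CPM + 0.5), and quality weights. They also covered fits on 2 groups, a replicate block, each library left out and 3 libraries left out together. Nnat kept its direction throughout, which in T.chuii vs CON follows from its choice. The other comparisons share libraries with that choice. Leaving out 1 library gave Nnat log2 changes of 0.03 to 1.03 for T.chuii vs DES. The ranges were 1.74 to 2.40 for T.chuii vs CON and 1.10 to 2.15 for DES vs CON. Outside these ranges lay DES vs CON at 0.94 with quality weights and 0.70 without the 3 cornea-rich libraries named below, and T.chuii vs CON at 1.69 without those 3. With the replicate block its changes were 0.59, 2.11 and 1.52 in that order, and no gene was called. A block in a fit of T.chuii and DES alone, chosen after seeing the data, called 2 genes, Mobp and Nmrk2. It changed no other call.

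Over all genes, T.chuii vs CON gave 2 calls with quality weights, 12 with only those groups fitted and 0 to 17 with 1 library left out. DES vs CON gave 0 to 15 with 1 library left out. The highest counts came without DES library 2. Leaving out CON library 2, DES library 1 and T.chuii library 1 together, those richest in corneal RNA by earlier results, gave 1 call in T.chuii vs DES and 1 in T.chuii vs CON. The cause was not tested.

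Small changes turned sign. In DES vs CON, Meg3 was 0.00 on log2(FPKM + 0.1), -0.02 on log2(FPKM + 1), -0.32 with quality weights and -0.46 without the 3 cornea-rich libraries, and Grb10 was -0.09, -0.08, -0.12 and -0.19 in that order and -0.01 on log2(CPM + 0.5). Plagl1 was 0.00 on log2(FPKM + 1), and without the 3 libraries Cdkn1c was -0.04 and H19 -0.44. In T.chuii vs DES, Ndn was 0.05 with quality weights and 0.08 without the 3 libraries. In T.chuii vs CON, Ndn was -0.03 on both FPKM scales and Dlk1 0.21 and 0.07. With 1 library left out, DES vs CON ranged from -0.29 to 0.08 for Peg3, -0.48 to 0.35 for Meg3, -0.22 to 0.18 for Grb10, -0.15 to 0.02 for Mest, -0.08 to 0.22 for Plagl1, -0.14 to 0.46 for Cdkn1c and -0.28 to 0.62 for H19. T.chuii vs DES ranged from -0.23 to 0.09 for Ndn and 0.00 to 0.67 for Meg3. T.chuii vs CON ranged from -0.05 to 0.26 for Ndn, -0.08 to 0.32 for Peg3, -0.29 to 0.23 for Dlk1, -0.27 to 0.71 for Meg3 and -0.03 to 0.38 for Grb10. The cause of these turns was not tested. With 3 libraries per group, precision was limited by the spread between libraries.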
